A study of Mus musculus with 8 samples.

Results

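The DNA replication genes described here are 44 genes named by symbol for their part in copying chromosomal DNA. The rule uses no measured value, though the list was drawn up with earlier results of these data known. Each symbol belonged to 1 gene, so they were 44 of the 53392 genes quantified, and 256 of the 136202 transcripts. RNA was measured in whole cerebral cortex of newborn mice (postnatal day 0) of the FVB/N strain by messenger RNA sequencing. Wild-type animals (4 libraries) were compared with mutants for R342X in Phf6 (4 libraries), a change that puts a stop codon in the reading frame of Phf6, an X-linked gene for a chromatin-associated protein of the nucleus. The design text gives the purpose as finding how this mutation alters cortical gene expression. Both genotypes share the strain, age and tissue, and the labels name no animal, litter or sex and do not say whether mutants carry 1 or more copies of the allele. If some libraries share an animal, the p-values describe the spread of these libraries alone, which may be technical.

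Replication starts when the origin recognition complex, with CDC6 and CDT1, loads the ring-shaped MCM helicase onto DNA in the G1 phase, and CDC45 and the GINS complex then turn that ring into a working helicase. Primase with polymerase alpha starts each strand, polymerases delta and epsilon extend it on the sliding clamp PCNA, RPA coats the exposed single strand, and the fragments of the lagging strand are trimmed, joined and packed into new nucleosomes. In newborn cortex most cells are neurons that no longer divide, and S phase is found mainly in progenitors of the ventricular and subventricular zones and to glial precursors. In whole tissue, fewer cells of a type and less RNA per cell cannot be told apart.

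The libraries held 30469745 to 74266937 estimated reads, and the 4 wild-type libraries were all deeper than the 4 mutant ones. The 44 genes took 0.0943 to 0.0996% of the reads of a mutant library and 0.0983 to 0.102% of those of a wild-type library. Phf6 itself, as the check of the labels, stood at 42.2 ± 1.9 CPM (estimated reads scaled to library size with TMM factors; SD, n = 4) in mutants and 79.0 ± 8.9 CPM (SD, n = 4) in wild type, which is a difference of -0.90 on the log2 scale with an adjusted p of 0.00226 (edgeR's quasi-likelihood test, Benjamini-Hochberg over all 20097 genes tested). The first principal component of all genes outside the lists used here held 35.2% of the variance and split the libraries into 2 sets that the labels do not name. Set 1 held mutants 1, 2 and 3 with wild type 1, and set 2 held mutant 4 with wild types 2, 3 and 4, so each set has a lone library of 1 genotype and set and genotype are partly confounded. Genotype differences are for genotype alone unless the set is named, and values with the library set as a term are given beside those of the genes described in each library. Summed markers of postmitotic cortical neurons, 10 genes, reached 5424 to 5672 CPM in mutants and 5594 to 5780 CPM in wild type, so the labelled tissue carried its neuronal markers in each library.

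A feature that the choice of members did not use is the sequence upstream of the genes. E2F factors, which drive transcription at the entry to S phase, are known for a short site rich in G and C after a run of T. Promoter windows of 300 bases from RefSeq (250 before the annotated start and 50 from it, build GRCm38.p6) matched 37 of the 44 genes by symbol, with 45 windows. One of TTTCCCGC, TTTCGCGC, TTTGCCGC or TTTGGCGC, on either strand, stood in the windows of 15 of the 37 genes (40.5%), against 2.60% of all 27025 genes of the table and 2.26% of its 32851 windows. CCAAT, the short box bound by NF-Y, stood on either strand in 23 of the 37 genes (62.2%), against 41.1% of all genes. Of 18 matched genes of mitosis, 1 held the E2F letters (5.56%) and 16 held CCAAT (88.9%). By role, the E2F letters stood in 4 of 5 matched helicase genes of the MCM2-7 ring, 4 of 6 polymerase genes and 2 of 2 licensing genes, and in none of the windows of the 3 RPA genes, the 3 nucleotide supply genes and the 2 chromatin assembly genes. A match describes these letters in this window and is not a measured site. The 5 promoters printed here are examples that all hold CCAAT: 3 helicase genes that also hold E2F letters, and Pcna and Rrm1, which hold CCAAT only. Pcna and Rrm1, with Mcm7, had the smallest p of the 44 genes between genotypes. Members with E2F letters only, such as Cdc6 and Cdt1, or with neither, such as Tyms and Rfc4, are not printed. Each run is the 200 bases before the annotated start, read 5′ to 3′ on the gene's strand, with E2F and CCAAT matches in capitals.
Mcm7 promoter, chr5:138171884-138172083, minus strand: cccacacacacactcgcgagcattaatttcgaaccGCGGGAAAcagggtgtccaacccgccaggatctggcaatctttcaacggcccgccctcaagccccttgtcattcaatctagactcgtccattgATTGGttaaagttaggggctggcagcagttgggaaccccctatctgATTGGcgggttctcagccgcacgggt
Mcm6 promoter, chr1:128359706-128359905, minus strand: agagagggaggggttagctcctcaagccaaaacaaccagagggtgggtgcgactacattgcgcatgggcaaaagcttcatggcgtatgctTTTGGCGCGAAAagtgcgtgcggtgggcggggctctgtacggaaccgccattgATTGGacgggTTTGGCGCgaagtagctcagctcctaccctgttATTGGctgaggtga
Mcm5 promoter, chr8:75109309-75109508, plus strand: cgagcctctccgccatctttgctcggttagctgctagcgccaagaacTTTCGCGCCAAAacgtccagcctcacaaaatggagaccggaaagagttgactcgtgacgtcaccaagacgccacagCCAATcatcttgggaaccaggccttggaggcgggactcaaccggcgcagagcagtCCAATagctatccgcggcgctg
Pcna promoter, chr2:132253181-132253380, minus strand: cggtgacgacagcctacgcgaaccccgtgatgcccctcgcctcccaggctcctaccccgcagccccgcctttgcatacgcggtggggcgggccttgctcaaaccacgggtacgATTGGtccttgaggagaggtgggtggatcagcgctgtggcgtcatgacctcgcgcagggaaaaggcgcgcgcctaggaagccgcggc
Rrm1 promoter, chr7:102441495-102441694, plus strand: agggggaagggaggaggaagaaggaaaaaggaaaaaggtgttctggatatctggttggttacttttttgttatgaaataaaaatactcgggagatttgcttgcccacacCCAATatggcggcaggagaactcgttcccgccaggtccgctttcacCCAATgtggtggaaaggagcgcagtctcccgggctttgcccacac
In Mcm6 and in Mcm5 a pair of E2F matches on opposite strands overlap each other, and form 1 run of capitals. The first base of the E2F match farthest upstream lay 165 bases before the start in Mcm7, 110 in Mcm6 and 153 in Mcm5. Mcm6 has a further match, apart from the overlapping pair, 47 bases before the start. A second Mcm7 match lies after the start, in the part of the window not printed. Mcm7 also has a window at another annotated start, and that window holds no E2F letters.

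Replication genes spanned about 2 orders of magnitude in level. Expressed per transcript length, as TPM, the library's share of transcripts on a fixed scale, summed per gene, Pcna was the most abundant of the 44 in wild type, at 114 ± 2.8 TPM (SD, n = 4), followed by Mcm7 at 94.2 ± 3.1, Rfc2 at 81.2 ± 7.8, Orc6 at 75.1 ± 8.2 and Orc4 at 65.2 ± 6.2 TPM. At the lower end stood Gins3 at 1.98 ± 0.23, Cdc6 at 1.27 ± 0.30 and Orc1 at 0.98 ± 0.37 TPM. In the order of wild-type levels most neighbours overlapped in range. The steps at which 4 wild-type libraries of one gene all exceeded the next were Pcna over Mcm7, Rrm1 over Gins4, Lig1 over Rrm2, Rrm2 over Rpa2, Gmnn over Gins2 and Mcm10 over Gins3.

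**Figure D1:**
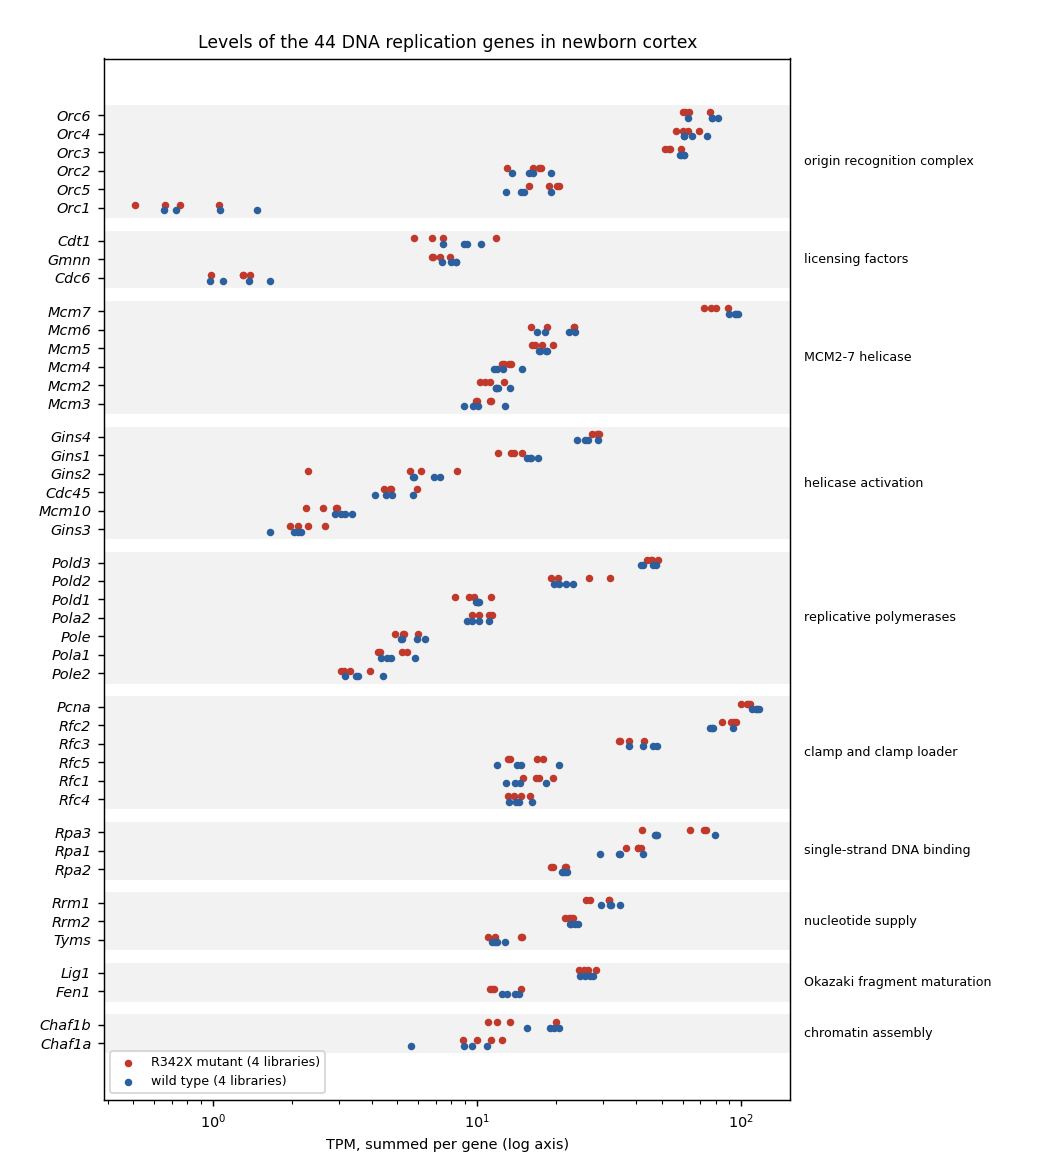
TPM of each replication gene in each library on a log axis, grouped by role and ordered by wild-type mean; each point is 1 library (4 mutant, 4 wild type). Levels run from about 1 TPM for Orc1 and Cdc6 to over 100 TPM for Pcna, and within most genes the genotypes overlap.

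Subunits of 1 complex differed widely in transcript level. Within the origin recognition complex, Orc6, Orc4 and Orc3 (59.8 ± 1.1 TPM in wild type) stood far above Orc2 (16.2 ± 2.2), Orc5 (15.4 ± 2.6) and Orc1, the ATPase subunit known to be cell cycle regulated. The MCM2-7 ring holds its 6 subunits in equal number, yet Mcm7 lay well above Mcm6 (20.2 ± 3.2), Mcm5 (17.8 ± 0.63), Mcm4 (12.7 ± 1.4), Mcm2 (12.2 ± 0.74) and Mcm3 (10.4 ± 1.7 TPM). In the clamp loader, Rfc2 lay above Rfc3 (43.6 ± 4.6), and Rfc5, Rfc1 and Rfc4 lay between 14.5 and 15.3 TPM in the wild-type mean. The 2 chains of ribonucleotide reductase, which makes deoxynucleotides, were closer, at 32.1 ± 2.1 TPM for Rrm1 and 23.2 ± 0.73 TPM for Rrm2. TPM depends on the transcript lengths that the reads were assigned to, which matters for genes that share sequence or overlap a neighbour.

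Between genotypes, the replication genes were slightly lower in mutants and no single gene of the 44 passed the test. Summed over the 44 genes, the level was 950.5, 937, 967 and 990.5 CPM in mutants 1 to 4 and 1001, 1039, 992 and 1030 CPM in wild types 1 to 4, so the mutant mean was 94.6% of wild type. The genotypes did not overlap, by a narrow margin between mutant 4 and wild type 3. Single genes differed by more than that margin between these 2 libraries, in both directions. Mcm7 was among them, at 75.4 and 82.1 CPM. With each gene weighted alike, as mean log2 CPM relative to the gene's mean over 8 libraries, the genotypes overlapped, at 0.012 in mutant 4 and -0.0058 in wild type 3. The median log2 fold change of the 44 genes was -0.07, with 31 below 0 and 13 above, against a median of 0.0014 and 49.7% below 0 over all genes tested. On the length-scaled TPM the sums were 1089, 1073, 1069 and 1082 in mutants and 1158, 1103, 1080 and 1086 in wild types, and there the genotypes overlapped. In edgeR's quasi-likelihood test on genotype alone, 0 of 44 genes were called lower and 0 higher at an adjusted p under 0.05, where 0.0199% of all genes were called lower and 0% higher. At an unadjusted p under 0.05, 6 genes were lower (13.6%, against 6.84% of all genes) and 1 was higher (2.27%, against 6.89%). With the library set as a term, edgeR again called 0 lower and 0 higher, against 0.363% and 0.239% of all genes. At an unadjusted p under 0.05 that fit had 8 members lower, against 7.21% of all genes, and 0 higher, against 6.48%. The median was then -0.05, again with 31 genes below 0.

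**Figure D2:**
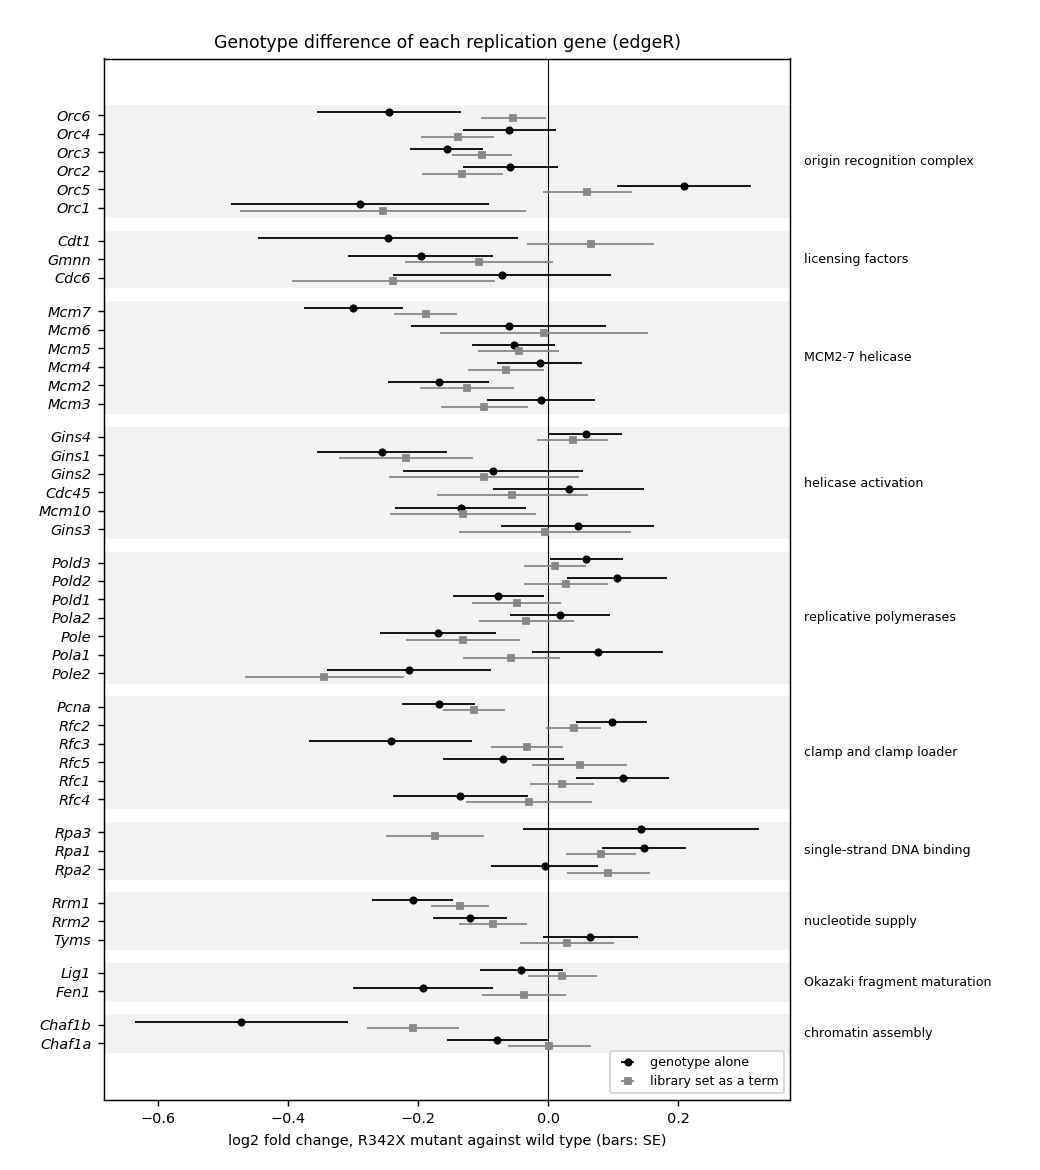
log2 fold change of each replication gene, mutant against wild type, with its standard error, from edgeR with genotype alone (black circles) and with the library set as a term (grey squares). Most values lie between -0.3 and 0.2, Chaf1b is lowest at -0.47 for genotype alone, and several genes move towards or across 0 when the library set is a term.

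Other tools and subsets moved the count of called members between 0 and 3. DESeq2 called 1 of the 43 members to which it gave an adjusted p, Mcm7 (log2 fold change -0.30, adjusted p = 0.0298), and called none higher, where it called 1.15% of all genes lower and 1.48% higher. In the authors' deposited table the same gene was the 1 member of 43 with an adjusted p under 0.05, with a log2 fold change of -0.15, a standard error of 0.057 and an adjusted p of 0.0351, against 1.32% of that table's genes lower and 1.46% higher. The deposited fold changes do not match the deposited p-values: Gins2 has -0.019 with a standard error of 0.053 and an unadjusted p of 0.0051. How they were estimated is not given in the sources used here, so their size cannot be compared with the values from edgeR and DESeq2. Without mutant 4, the lone mutant of set 2, edgeR called Chaf1b (-0.65, adjusted p = 0.0328), Rrm1 (-0.27, 0.0328) and Mcm7 (-0.35, 0.0371) lower and no member higher, where 1.65% of all genes were lower and 1.72% higher; the remaining mutants then all belong to set 1, so genotype and set are confounded more strongly in that fit. By the CPM of single libraries, 2 of the 44 genes had every mutant below every wild type, Pcna and Gins1, against 3.2% of all genes, and none had every mutant above, against 2.95%.

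Among the genes that mark and license origins, the subunits of the origin recognition complex had lower values in mutants for 5 of 6 genes, and none was called. Orc6, the smallest subunit and the most abundant of the complex (chr8:85299632-85308278), was measured at 32.3, 31.5, 32.2 and 39.8 CPM in mutants 1 to 4 and at 31.9, 42.3, 41.2 and 45.2 CPM in wild types 1 to 4. Mutant 4 was high among mutants and wild type 1 low among wild types, so Orc6 followed the library sets, and its genotype difference of -0.24 ± 0.11 (log2, SE; adjusted p = 0.366 in edgeR) became -0.05 ± 0.05 with the set as a term. Orc3, which forms part of the core of the complex (chr4:34570796-34614944), was measured at 44.7, 43.1, 47.2 and 49.4 CPM in mutants and 49.1, 53.7, 50.5 and 52.1 CPM in wild types. Only mutant 4 reached the range of wild type, where it stood just above wild type 1, and the log2 fold change was -0.16 ± 0.06 (edgeR adjusted p = 0.296), or -0.10 ± 0.05 with the set as a term. Orc5 ran the opposite way, at 20.6, 20.01, 19.2 and 15.9 CPM in mutants and 18.7, 17.04, 15.3 and 14.5 CPM in wild types. Its lowest mutant was again mutant 4 and its highest wild type was wild type 1, and the difference of 0.21 ± 0.10 (edgeR adjusted p = 0.392) was 0.06 ± 0.07 with the set as a term. Summed over the 6 subunits, mutants held 169.9 to 177 CPM and wild types 179 to 193 CPM, without overlap. Summed TPM did not overlap either. With each gene weighted alike the genotypes overlapped (0.0042 in mutant 4, -0.020 in wild type 3).

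The licensing factors Cdc6 and Cdt1, which load the helicase, and Gmnn, whose product geminin holds CDT1 back after S phase has begun, were all lower in the mean without passing the test. Cdt1 (chr8:122568015-122573554) was measured at 7.25, 6.16, 7.17 and 11.6 CPM in mutants and 7.10, 9.92, 9.61 and 11.5 CPM in wild types. Its libraries separated by set and not by genotype, with each set 2 library above each set 1 library, and its log2 fold change was -0.25 ± 0.20 for genotype alone and 0.07 ± 0.10 with the set as a term (edgeR adjusted p = 0.573 and 0.83). Gmnn differed by -0.20 ± 0.11 and Cdc6, at 64 to 138 estimated reads in a library, by -0.07 ± 0.17.

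The MCM2-7 helicase, the ring that unwinds DNA ahead of the fork, had 6 of 6 genes below 0 in both fits. Mcm7 (chr5:138164583-138172422) had the smallest p of the 44 genes. It was measured at 66.0, 62.8, 67.2 and 75.4 CPM in mutants 1 to 4 and 73.8, 86.0, 82.1 and 92.05 CPM in wild types 1 to 4. Mutant 4 passed the lowest wild type, wild type 1, and the other libraries kept the genotypes apart. The log2 fold change was -0.30 ± 0.08 (edgeR adjusted p = 0.200), and with the set as a term -0.19 ± 0.05 (0.0995). Within set 1 the 3 mutants lay 0.18 below the 1 wild type on the log2 scale, and within set 2 the 1 mutant lay 0.20 below the 3 wild types. Mcm7 overlaps the protein-coding genes Cops6 and Ap4m1 in the GENCODE annotation, and whether strand was used in the counting is not given in the sources used here.

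Mcm2 (chr6:88883474-88898780), a subunit that also binds histones, was measured at 17.5, 18.3, 20.05 and 22.2 CPM in mutants and 22.5, 21.9, 21.0 and 22.2 CPM in wild types. The first 3 mutants lay below each wild type and mutant 4 lay among them, and the genotype means differed by -0.17 ± 0.08 on the log2 scale (edgeR adjusted p = 0.374), and by -0.12 ± 0.07 with the set as a term. Mcm3, Mcm4 and Mcm5 differed by -0.01 ± 0.08, -0.01 ± 0.07 and -0.05 ± 0.06, and in each of them wild type 1 was the highest library. Mcm6 is named here after its values were seen, for its spread: 23.6, 33.8, 33.8 and 27.5 CPM in mutants and 26.0, 37.4, 25.6 and 34.7 CPM in wild types. High and low libraries of Mcm6 fell in both genotypes and in both library sets, and its difference was -0.06 ± 0.15, or -0.0061 ± 0.160 with the set as a term. Its main protein-coding transcript showed the same alternation, at 14.8, 20.4, 19.7 and 16.6 TPM in mutants and 16.2, 20.8, 14.8 and 18.0 TPM in wild types. Summed over the ring, mutants held 167, 174, 181 and 187 CPM and wild types 190.5, 204, 188 and 209 CPM, without overlap by a narrow margin, and Mcm7 supplied more of that sum than any other subunit. On summed TPM the genotypes overlapped for the ring (164.3 in mutant 4, 163.3 in wild type 3). With each gene weighted alike they overlapped as well (0.0096 in mutant 4, -0.035 in wild type 3).

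**Figure D3:**
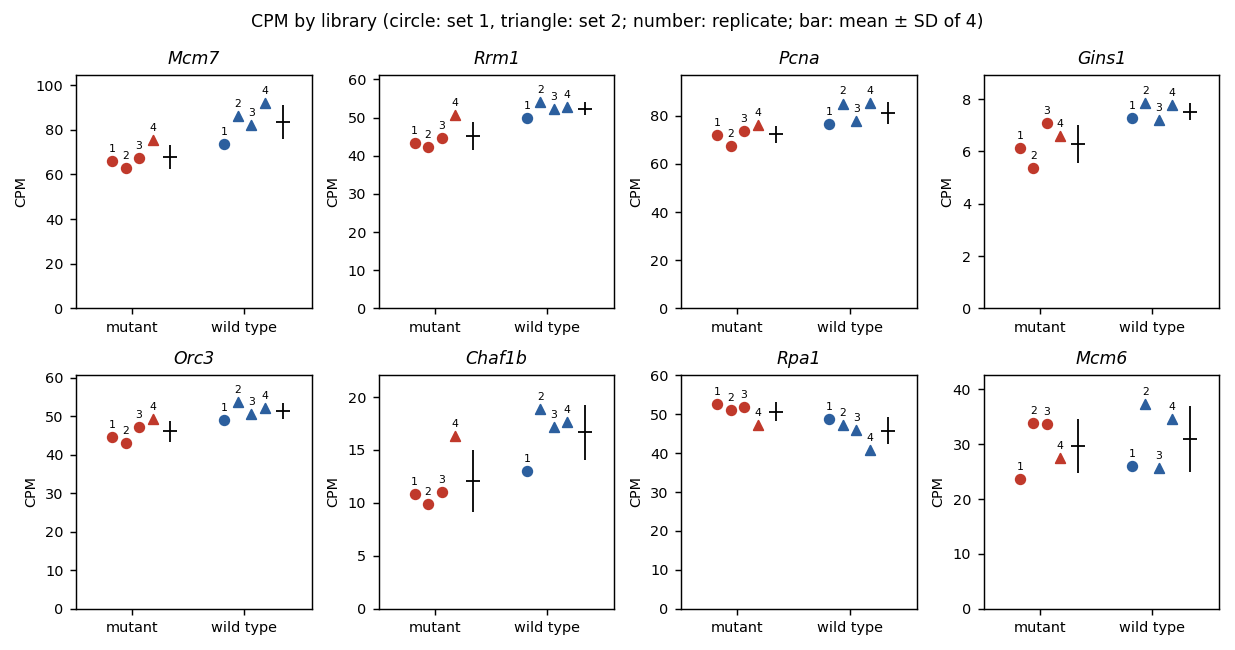
CPM by library for 8 replication genes; circles are library set 1, triangles set 2, the digit is the replicate number, and the bar is the mean ± SD of 4 libraries. In Pcna and Gins1 the genotypes do not overlap, in Mcm7, Rrm1, Orc3 and Chaf1b mutant 4 reaches the wild-type range, and Mcm6 alternates between about 25 and 35 CPM in both genotypes.

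Of the factors that switch the loaded ring on, 3 of 6 genes were below 0 for genotype alone and 5 of 6 with the set as a term, and none was called. Gins1 (chr2:150905400-150931280), a subunit of the GINS complex, was measured at 6.15, 5.38, 7.09 and 6.58 CPM in mutants and 7.28, 7.84, 7.19 and 7.78 CPM in wild types. Each mutant lay below each wild type, though mutant 3 and wild type 3 were close. The log2 fold change was -0.26 ± 0.10 (edgeR adjusted p = 0.319), -0.22 ± 0.10 with the set as a term, -0.24 within set 1 and -0.21 within set 2. Another subunit of the same complex, Gins4, the most abundant of this role, stood at 18.1, 18.0, 18.6 and 18.0 CPM in mutants and 18.0, 17.5, 17.7 and 16.7 CPM in wild types. These values were nearly level across libraries, and its difference was 0.06 ± 0.06 (edgeR adjusted p = 0.641), or 0.04 ± 0.05 with the set as a term. Gins2 and Gins3 differed by -0.08 ± 0.14 and 0.05 ± 0.12, Cdc45 by 0.03 ± 0.12, and Mcm10, which helps to activate the helicase, by -0.13 ± 0.10.

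The replicative polymerases had a median of 0.02 with 3 of 7 genes below 0 for genotype alone, and of -0.05 with 5 of 7 below 0 with the set as a term. Pold3, an accessory subunit of polymerase delta and the most abundant of the 7, was measured at 43.7, 39.7, 41.1 and 40.0 CPM in mutants and 42.5, 38.7, 39.1 and 37.6 CPM in wild types. The genotypes overlapped broadly, with a difference of 0.06 ± 0.06 (edgeR adjusted p = 0.633), or 0.01 ± 0.05 with the set as a term. The catalytic subunits were Pola1 at 0.08 ± 0.10, Pold1 at -0.08 ± 0.07 and Pole at -0.17 ± 0.09, and the accessory subunits Pola2 and Pold2 stood at 0.02 ± 0.08 and 0.11 ± 0.08. Pole2, the second subunit of polymerase epsilon, differed by -0.21 ± 0.13 for genotype alone and by -0.34 ± 0.12 with the set as a term (edgeR adjusted p = 0.459 and 0.226), on 68 to 185 estimated reads in a library.

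The sliding clamp and its loader differed in pattern. Pcna (chr2:132249162-132253314), which encircles DNA and tethers the polymerases, was measured at 71.8, 67.6, 73.5 and 76.3 CPM in mutants and 76.7, 85.1, 77.9 and 85.3 CPM in wild types. All 4 mutants lay below all 4 wild types, with mutant 4 and wild type 1 less than 1 CPM apart. The log2 fold change was -0.17 ± 0.06 (edgeR adjusted p = 0.271), and -0.11 ± 0.05 with the set as a term (0.312). In TPM the genotypes were likewise apart, at 99.5 to 108 in mutants and 110.1 to 117 in wild types. Rfc3, a subunit of the RFC clamp loader, followed the library sets, at 21.8, 21.6, 23.8 and 29.98 CPM in mutants and 22.9, 29.4, 30.3 and 32.2 CPM in wild types. Mutant 4 was as high as the set 2 wild types and wild type 1 as low as the set 1 mutants, and the difference of -0.24 ± 0.13 became -0.03 ± 0.06 with the set as a term (edgeR adjusted p = 0.411 and 0.858). The largest loader subunit, Rfc1, and Rfc2 stood above 0, at 0.11 ± 0.07 and 0.10 ± 0.05, and Rfc4 and Rfc5 below, at -0.14 ± 0.10 and -0.07 ± 0.09. With the set as a term these 4 lay between -0.03 and 0.05.

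The single-strand binding protein RPA had a median of 0.14 with 2 of 3 genes above 0 for genotype alone, and of 0.08 with 2 of 3 above 0 with the set as a term. Rpa1, its large DNA-binding subunit (chr11:75298166-75348324), was measured at 52.6, 51.1, 51.9 and 47.2 CPM in mutants and 48.9, 47.4, 45.9 and 40.9 CPM in wild types. Mutants 1 to 3 lay above each wild type and mutant 4 lay among them, and the genotype means differed by 0.15 ± 0.06 on the log2 scale (edgeR adjusted p = 0.355), and by 0.08 ± 0.05 with the set as a term. Rpa3, the small subunit, was measured at 17.01, 15.2, 18.1 and 10.5 CPM in mutants and 18.35, 12.4, 11.7 and 12.7 CPM in wild types. Its 4 set 1 libraries lay above its 4 set 2 libraries, so that the genotype difference of 0.14 ± 0.18 turned to -0.17 ± 0.08 with the set as a term (edgeR adjusted p = 0.724 and 0.329). Rpa2 differed by -0.0052 ± 0.082, and summed over the 3 subunits the mutant mean was 108% of wild type with overlapping libraries.

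Among genes for the supply of nucleotides, both chains of ribonucleotide reductase lay lower in the mutant mean. Rrm1, the large chain (chr7:102441695-102469771), was measured at 43.4, 42.2, 44.7 and 50.5 CPM in mutants and 49.96, 54.1, 52.3 and 52.7 CPM in wild types. Mutant 4 passed wild type 1, and the other mutants lay below all wild types. The log2 fold change was -0.21 ± 0.06 (edgeR adjusted p = 0.246), or -0.14 ± 0.04 with the set as a term, with -0.20 within set 1 and -0.07 within set 2. Rrm2, the small chain made in S phase, was measured at 22.7, 23.8, 23.6 and 24.8 CPM in mutants and 25.1, 26.1, 24.8 and 27.3 CPM in wild types. The ranges met at mutant 4 and wild type 3, and the difference was -0.12 ± 0.06 (edgeR adjusted p = 0.379), or -0.08 ± 0.05 with the set as a term. Tyms, the thymidylate synthase, stood at 0.06 ± 0.07.

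Fragment joining and chromatin assembly completed the set. Lig1, the ligase that seals the fragments of the lagging strand and the more abundant gene of its role, was measured at 33.9, 34.9, 38.5 and 39.0 CPM in mutants and 35.2, 37.0, 38.6 and 39.6 CPM in wild types. The genotypes overlapped over nearly their whole range, with a difference of -0.04 ± 0.06 (edgeR adjusted p = 0.773), or 0.02 ± 0.05 with the set as a term. Fen1, the flap nuclease that trims those fragments, differed by -0.19 ± 0.11 for genotype alone and -0.04 ± 0.06 with the set as a term. Chaf1b (chr16:93883901-93906115), a subunit of the CAF-1 chaperone that places histones behind the fork, had the lowest fold change of the 44 genes for genotype alone; with the set as a term Pole2 was lowest. It was measured at 10.8, 9.88, 11.0 and 16.3 CPM in mutants and 12.97, 18.9, 17.1 and 17.6 CPM in wild types. Mutant 4 stood above the other mutants and above wild type 1, which was the lowest wild type. The log2 fold change was -0.47 ± 0.16 (edgeR adjusted p = 0.282) for genotype alone and -0.21 ± 0.07 with the set as a term (0.203). Its partner Chaf1a differed by -0.08 ± 0.08 on counts, but by 0.24 with offsets for transcript length and 0.31 on log2 TPM. The share of Chaf1a TPM assigned to its short protein-coding transcript ENSMUST00000232828.1 was 45.5 to 56.6% in mutants and listed at 0% in wild type 3, against 37.4 to 51.3% in the other wild types.

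More of these genes separated by library set than by genotype, and the same held for all genes. Of all genes, 3.2% had every mutant below every wild type and 2.95% every mutant above. The sets were read from the first principal component, so more separation by set is built into them. Each set 2 library lay above each set 1 library in 11 of the 44 genes (25%, against 15.1% of all genes): Chaf1a, Chaf1b, Cdt1, Gmnn, Fen1, Rfc3, Rfc5, Mcm7, Rrm1, Orc3 and Orc6. The reverse held in 8 genes (18.2%, against 18.2% of all genes): Rpa1, Rpa3, Pola1, Pold2, Rfc1, Rfc2, Orc5 and Gins4. The set difference in log2 CPM reached 0.65 in Chaf1b and 0.62 in Cdt1 in one direction and 0.53 in Rpa3 in the other. Cdt1, Chaf1b and Rpa3 thus differed more between the sets than any of the 44 genes did between genotypes. What the sets are was not tested, and since they hold 3 libraries of 1 genotype and 1 of the other, a part of each genotype difference cannot be told apart from the set.

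**Figure D4:**
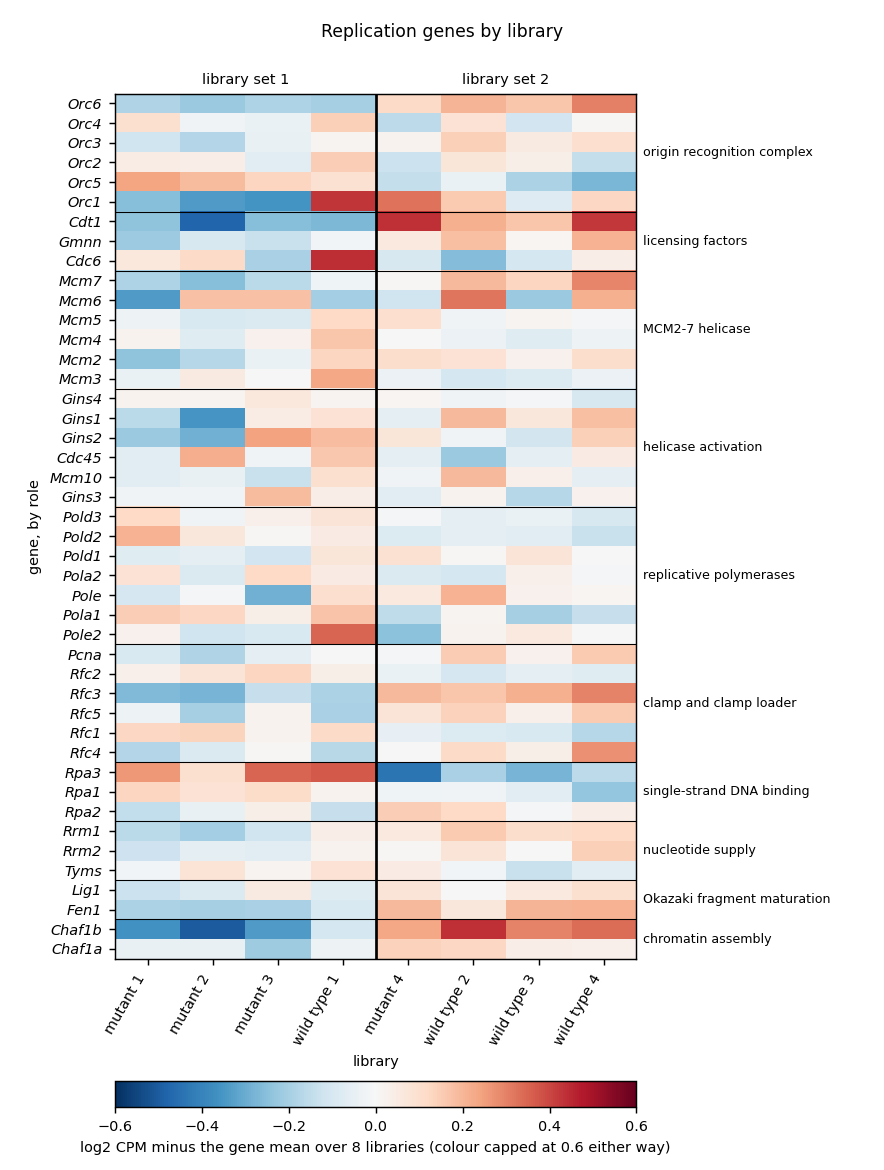
log2 CPM of each replication gene in each library, relative to the gene's mean over 8 libraries, with columns ordered by library set and rows by role; red is above the mean and blue below. Chaf1b, Cdt1, Rfc3, Orc6 and Fen1 change colour at the line between the sets, and Rpa3 does so in the other direction.

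Transcript shares within genes were mostly alike between genotypes. Of 209 member transcripts with a TPM above 0 in at least 4 libraries, 4 had a lower share of their gene's TPM in every mutant than in every wild type (2.04% of all 67000 transcripts compared did) and 5 a higher share (1.46% of all did). The protein-coding Mcm7 transcript ENSMUST00000153867.7 took 5.95 ± 0.83% of Mcm7 TPM in mutants and 4.43 ± 0.48% in wild type (SD, n = 4). Orc4 transcript ENSMUST00000028098.10 took 20.4 ± 0.84% in mutants and 18.6 ± 0.53% in wild type. In Pold3, a transcript annotated for nonsense-mediated decay (ENSMUST00000127128.7) was listed at 0 in all 4 mutants and took 1.44 to 3.10% in wild types, on at most 86 estimated reads. The pairs in Cdc45 and in Pola1 are complementary: ENSMUST00000000028.13 of Cdc45 took 63.4 ± 12.4% in mutants and 49.1 ± 2.3% in wild type while ENSMUST00000096990.9 was listed at 0 in mutant 3, and the Pola1 transcript ENSMUST00000142479.1 was also listed at 0 in that library. The remaining pair were a Tyms transcript for nonsense-mediated decay, lower in mutants, and a retained-intron transcript of Rrm1, higher in mutants. Retained-intron transcripts held 8.31 to 9.95% of the member reads in mutants and 8.59 to 10.03% in wild types.

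Other genes around replication were grouped by known function in 6 lists of 92 genes, of which 20 belong to mitosis and 25 to G1/S control. On genotype alone edgeR called 0 of the 92 lower and 0 higher. At an unadjusted p under 0.05, 16 were lower (17.4%, against 6.84% of all genes) and 5 higher (5.43%, against 6.89%), and 5 of the 16 were mitosis genes. With the set as a term, edgeR called 0 lower and 1 higher, against 0.363% and 0.239% of all genes. At an unadjusted p under 0.05 that fit had 11 lower (11.96%, against 7.21% of all genes) and 5 higher (5.43%, against 6.48%). DESeq2 called Nasp lower and 2 of the 92 higher, where it called 1.15% and 1.48% of all genes. Of 8 origin firing factors 5 were below 0 (median -0.07). The smallest p was that of Topbp1, a scaffold for helicase activation, at 55.0, 55.3, 59.5 and 69.1 CPM in mutants and 63.2, 72.2, 69.5 and 69.6 CPM in wild types (-0.20 ± 0.08, edgeR adjusted p = 0.317; -0.09 ± 0.05 with the set as a term). Of 18 fork accessory factors 15 were below 0 (median -0.13), and Atad5, which unloads PCNA from DNA, had -0.27 ± 0.10 (edgeR adjusted p = 0.284), or -0.14 ± 0.06 with the set as a term. Their summed CPM did not overlap between genotypes, at 350.1 to 360.4 in mutants and 369 to 384 in wild types. On summed TPM the genotypes overlapped for this list (444 in mutant 4, 437 in wild type 2). With each gene weighted alike they overlapped as well (0.049 in mutant 4, 0.0039 in wild type 1). Of 9 other genes of nucleotide supply 7 were below 0 (median -0.05), and the smallest p there was above 0, that of Samhd1, which breaks down deoxynucleotides (0.22 ± 0.07, edgeR adjusted p = 0.260; 0.14 ± 0.05 with the set as a term). Replication-coupled chromatin genes had a median of -0.02 with 8 of 12 below 0, and the histone chaperone gene Nasp stood at 141 to 149 CPM in mutants and 159 to 162 CPM in wild types, without overlap (-0.14 ± 0.04 in both fits, edgeR adjusted p = 0.225 for genotype alone).

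Cdkn1a, which encodes the p21 inhibitor of cyclin-dependent kinases and of PCNA, had the smallest p of the 25 genes of G1/S control. It was measured at 22.0, 22.5, 24.8 and 22.5 CPM in mutants and 16.4, 15.5, 16.2 and 17.2 CPM in wild types, with each mutant above each wild type in both library sets. The log2 fold change was 0.49 ± 0.06, just short of the threshold for genotype alone (edgeR adjusted p = 0.0529) and past it with the set as a term (0.48 ± 0.06, adjusted p = 0.011). The list's median was -0.05, with 17 of 25 genes below 0.

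Lists of mitosis genes and of cell type markers also differed in level between the libraries, and edgeR on genotype alone called none of their genes. Of 20 mitosis genes 20 were below 0, with a median of -0.24, and 17 of 20 with a median of -0.08 once the set was a term. Their smallest p was that of Cenpf, a kinetochore protein (-0.37 ± 0.12, edgeR adjusted p = 0.262; -0.24 ± 0.09 with the set as a term). Summed mitosis CPM was 233.5, 202, 239 and 327 in mutants and 284, 303, 292.5 and 332 in wild types, so mutant 4 stood at the level of wild type. Radial glia markers, 9 genes of the ventricular progenitors, had a median of -0.13 with 8 of 9 below 0 (-0.07 and 7 of 9 with the set as a term) and sums of 1664 to 1781 CPM in mutants and 1763 to 1861 CPM in wild types. The exception was Slc1a3, a glial glutamate transporter gene, at 0.20 ± 0.06 (edgeR adjusted p = 0.246) without overlap. Nes had the smallest p of the list, at 110 to 128 CPM in mutants and 135 to 137 CPM in wild types, also without overlap. Its log2 fold change was -0.24 ± 0.05 (edgeR adjusted p = 0.179), or -0.19 ± 0.05 with the set as a term (0.0751). Intermediate progenitors, which divide in the subventricular zone, were marked by 6 genes, 5 of them tested. Their summed CPM was 88.2, 83.0, 102 and 117 in mutants and 119, 124.5, 123.5 and 128 in wild types, without overlap, 79.0% of wild type in the mean. Insm1 supplied the largest part, at 45.8 to 63.3 CPM in mutants and 62.8 to 74.2 CPM in wild types. Below 0 were 4 of 5 genes in both fits, with medians of -0.25 and, with the set as a term, -0.28. Eomes overlapped between genotypes and was highest in mutant 3. Btg2 was above 0 for genotype alone (0.15 ± 0.25), and Mfap4 with the set as a term (0.06 ± 0.08). With that term edgeR called Neurog2 and Insm1 lower, and Neurod6 (-0.32 ± 0.06, adjusted p = 0.0305) of the postmitotic neuron markers, against 0.363% of all genes. Oligodendrocyte precursors, which also divide, had 5 of 5 genes above 0 with a median of 0.21, and 4 of 5 with a median of 0.14 once the set was a term. Microglia markers summed to 72.7 to 79.7 CPM in mutants and 63.3 to 72.2 CPM in wild types, without overlap by a narrow margin, while each single gene overlapped. Their summed TPM overlapped between genotypes (69.4 in mutant 4, 75.1 in wild type 1), as did their mean with each gene weighted alike. Microglia markers were above 0 in 6 of 6 genes with a median of 0.13, and 0 had an unadjusted p under 0.05 in edgeR on genotype alone. With the set as a term 4 of 6 were above 0, with a median of 0.10. Endothelial markers were above 0 in 5 of 5 genes and meningeal fibroblast markers in 4 of 5, with medians of 0.09 and 0.14 (0.24 and 0.31 with the set as a term). Interneuron markers were below 0 in 5 of 7 genes (median -0.13; 6 of 7 and -0.10 with the set as a term). The part of these cell types in the values of the 44 genes was not tested.

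**Figure D5:**
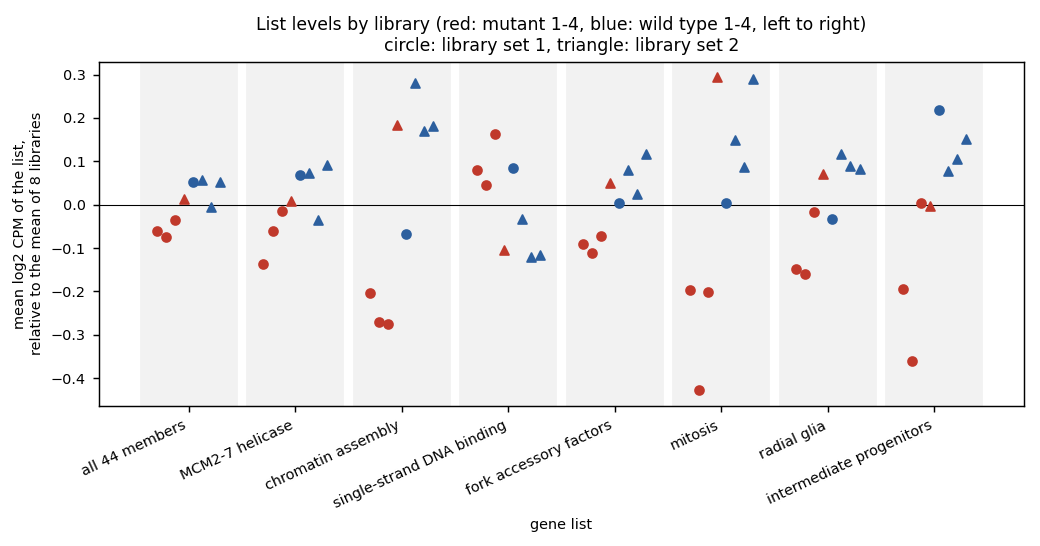
Mean log2 CPM of 8 gene lists in each library, relative to the list's mean over the 8 libraries (red mutants 1 to 4, blue wild types 1 to 4, from left to right; circles set 1, triangles set 2). The mean of the 44 replication genes, taken over genes that run in opposite directions between the sets, lies between -0.07 and 0.06, and in the chromatin assembly and mitosis lists mutant 4 lies with the wild types.

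The list mean of the 44 genes ran from -0.07 in mutant 2 to 0.06 in wild type 2 on the log2 scale, against -0.43 in mutant 2 to 0.29 in mutant 4 for mitosis genes. The members run both ways between the library sets, so their mean does not give the spread of single genes.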

How the data were processed

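The 8 messenger RNA libraries from newborn cortex (4 R342X mutant, 4 wild type) were grouped by the genotype in their labels. Per the file headers, the authors deposited for each library an estimated count (expected count) and a TPM value per transcript. Per the submitters' processing notes, Salmon 0.12.0, DESeq2 and the GRCm38 build were used; for bias options and strand use, the sources used here give nothing. For each gene, the authors' deposited table holds, per the file headers, a signal (mean normalized count), a log2 fold change and its error, and raw and adjusted p-values.

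Salmon splits reads among transcripts by a model, so genes with shared sequence have linked estimates. Estimated counts were summed per gene, rounded, and tested over all genes passing edgeR's default low-count filter (44 of 44 members passed) with the two-sided quasi-likelihood F test of edgeR 4.0.16 (R 4.3.3) after TMM scaling, with genotype as the single model term, and were called at a Benjamini-Hochberg adjusted p under 0.05. CPM values are TMM-scaled. The test was checked on simulated data that held no library sets and changes larger than those of the 44 genes. That check therefore does not cover the split of these libraries or differences as small as these. Alternatives were DESeq2 1.42.0, limma-voom and log2(TPM + 0.1) with limma 3.58.1, other filters, length offsets, protein-coding transcripts alone, the library set or the replicate number as a term, and leaving out each library. Library sets were read from principal component 1 of log2 CPM values (prior count 2), computed without the genes of the lists. Gene positions are from GENCODE for GRCm38, promoters from RefSeq.

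The 44 members and the lists were chosen with earlier results of these data known. Library values were given for the 12 members with the smallest p and for the most abundant member of each role by wild-type TPM, and of each related pathway list the called members (at most 4) or the gene with the smallest p were named. No protein sequences were used here.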

Additional observations from a re-analysis of the deposited data

Results flagged for a closer look

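In 10 of 88 groups (44 genes in 2 genotypes), 1 of 4 libraries stood far from the other 3 by Dixon's test at the 95% level, where chance flags about 1 in 20 groups. Mutant 4 stood high in Orc1 (1.24 CPM, the other mutants 0.772 to 0.828), Orc6 (39.8, others 31.5 to 32.3) and Fen1 (16.8, others 12.8 to 12.9). Wild type 1 stood high in Mcm4 (26.0 CPM, the other wild types 22.0 to 22.7), Pole2 (3.07, others 2.41 to 2.52) and Rpa3 (18.35, others 11.7 to 12.7). These libraries are the lone ones of their genotype in their library set. Cdc45 was high in mutant 2 (5.475 CPM, others 4.49 to 4.63), and mutant 3 was high in Gins3 (2.675 CPM, others 2.24 to 2.31) and in Gins4 (18.6 CPM, others 18.0 to 18.1). Gins3 was low in wild type 3 (2.08 CPM, the other wild types 2.38 to 2.41).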

How the results depend on the processing

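Of 388 fold changes of members under alternatives that kept the 8 libraries, 365 kept their direction and their side of the threshold, 1 passed it (Mcm7 with DESeq2) and 22, in 14 genes, changed sign. DESeq2 gave 1 member lower and, of the related pathway genes, 1 lower (Nasp) and 2 higher. No filter, a filter of 5 CPM in at least 4 libraries, and the library set each gave 1 pathway gene higher. With the library set 0 members were higher at an unadjusted p under 0.05. On log2 TPM the members' median was -0.024, where that of all genes was 0.0515. Over all genes edgeR called 4 lower and 0 higher, DESeq2 178 and 228, and edgeR with the library set 73 and 48.

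Values that changed sign were, with the library set, Cdt1 0.066, Cdc45 -0.055, Gins3 -0.0050, Pola1 -0.056, Pola2 -0.034, Rfc5 0.049, Rpa2 0.092, Rpa3 -0.17, Lig1 0.022 and Chaf1a 0.0021. With length offsets they were Pola1 -0.068, Pold3 -0.0069 and Chaf1a 0.24, and on log2 TPM Mcm3 0.045, Mcm4 0.033, Pola1 -0.018, Rfc5 0.0091 and Chaf1a 0.31. Protein-coding transcripts alone gave Mcm10 0.081, Cdc45 -0.0038 and Rpa2 0.014, and limma-voom gave Mcm3 0.0020. The cause was not tested.

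Leaving out 1 library at a time gave 0 to 3 members called lower, 3 to 14 lower and 0 to 4 higher at an unadjusted p under 0.05, 0 to 14 pathway genes lower and 0 to 2 higher, and a members' median of -0.10 to -0.054. The 3 calls and the 14 pathway calls came without mutant 4, where edgeR called 1.65% of all genes lower and 1.72% higher at an adjusted p under 0.05. The 14 members at an unadjusted p came from the same fit. For the fits with 1 library left out, the share of all genes at an unadjusted p was not counted, so these member counts have no background beside them. The 3 lower members at an unadjusted p came without mutant 2, and the 4 higher ones without wild type 1. Sign changes were Cdc45 -0.034 to 0.096, Cdc6 -0.16 to 0.084, Gins3 -0.0080 to 0.074, Mcm3 -0.048 to 0.075, Mcm4 -0.040 to 0.049, Mcm6 -0.14 to 0.044, Pola2 -0.014 to 0.054 and Rpa2 -0.058 to 0.044.

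Replicate numbers recur in both genotypes. Deviations of same-numbered libraries correlated at 0.24, -0.03, -0.08 and 0.32, so the numbers were not taken to pair the libraries. Only numbers 1 and 4 correlated best with their own number. With the replicate block, 0 members and 1 pathway gene (Cdkn1a, higher) were called, and over all genes 12 were called lower and 8 higher. At an unadjusted p under 0.05, 10 members were lower and 2 higher, and the share of all genes was not counted for that fit.

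Mutant libraries were the shallower ones, and Orc1, at 24 to 70 estimated reads, Cdc6, Pole2 and Gins3 were among the members with the fewest reads.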
